A study of Homo sapiens with 9 samples.

Results

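The peaks of accessible chromatin in HEK293T cells lacking IGF2BP1 were set directly against those in HEK293T cells lacking IGF2BP2. The comparison covered 5 of the 9 ATAC-seq libraries of the series, 3 from the IGF2BP1 knockout and 2 from the IGF2BP2 knockout. It rested on the peak list deposited for each group, with 50917 peaks for the IGF2BP1 knockout and 60262 for the IGF2BP2 knockout. A control list of 39194 peaks, from 2 libraries made with a non-targeting guide, was used only to say which knockout list it resembled. HEK293T is an established human embryonic kidney line that carries adenoviral sequence and the SV40 large T antigen. ATAC-seq uses the Tn5 transposase to insert adapters into open DNA, so that a peak marks an interval of frequent insertion.

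Per the labels, each knockout came from transient transfection with a non-integrating plasmid that carried 3 guide RNAs for its target together with GFP. Sorted single cells were grown into colonies, and 1 clone per knockout was profiled, with no further treatment of any group. Clone and genotype therefore cannot be told apart. The IGF2BP1 knockout libraries came from batches 1, 2 and 3, whereas those of the IGF2BP2 knockout and the control came from batches 2 and 3. Because there was 1 list per group and no value per library, neither batch nor the spread between replicates could be examined. No difference below carries a test. The intervals given cover counting error over peaks or genes only. Of 12 genes that mark HEK293T cells, 9 had a peak at their start in both knockout lists, and PAX2, KRT8 and EYA1 had none in either. Of 17 markers of other cell types, 7 had a start peak in the IGF2BP1 knockout list, 6 in the IGF2BP2 knockout list and 4 in the control list. SPI1, APOA1, DCN, COL1A1 and KDR had one in both knockout lists, CD3E and LUM in the IGF2BP1 knockout list only and COL1A2 in the IGF2BP2 knockout list only.

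IGF2BP1, IGF2BP2 and IGF2BP3 are cytoplasmic RNA-binding proteins that recognise messenger RNAs, many of them carrying N6-methyladenosine, and affect their stability and translation. IGF2BP1 and IGF2BP3 are largely fetal proteins that are expressed again in many tumours, and IGF2BP2 is expressed more widely in adult tissue. The title of the series names their part in innate immune signalling. That pathway runs from sensors of foreign nucleic acid through adaptors and interferon regulatory factors to interferon, the JAK-STAT pathway and interferon-stimulated effectors.

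A few promoters carried the contrast and are shown here to give the sequence that was inside a peak of one knockout list and outside every peak of the other. Each line gives the 250 bases before the annotated start of the gene (RefSeq, GRCh38.p14), read along the strand of the gene, all 250 of which lay inside the peak. Capitals mark matches, on either strand, to the motifs searched. These were TATAAA for the TATA box, CCAAT for the CCAAT box, GGGCGG for the GC box bound by SP factors, CCGGAAG for ETS factors and TGANTCA for AP-1. The last was the letters GAAA, any 2 bases and again GAAA, the repeated core of elements bound by interferon regulatory factors, called the GAAA repeat below. Matches of different motifs could overlap. A match describes the letters and is not a binding site. ARHGDIA had the widest start peak without a counterpart in the IGF2BP1 knockout list. MCCD1, CELF3 and NTMT2 had wide ones in the IGF2BP2 knockout list. IGF2BP3, OAS3 and ISG15 were picked after their values were seen, as the untargeted family member and as an interferon-induced gene of either direction.
ARHGDIA (chr17:81871338-81871587, minus strand): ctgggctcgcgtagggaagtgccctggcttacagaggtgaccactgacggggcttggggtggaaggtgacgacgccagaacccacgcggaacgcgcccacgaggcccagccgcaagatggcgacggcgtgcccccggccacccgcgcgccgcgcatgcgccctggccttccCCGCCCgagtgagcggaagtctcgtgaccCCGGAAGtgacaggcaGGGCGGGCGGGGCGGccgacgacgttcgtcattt
IGF2BP3 (chr7:23470492-23470741, minus strand): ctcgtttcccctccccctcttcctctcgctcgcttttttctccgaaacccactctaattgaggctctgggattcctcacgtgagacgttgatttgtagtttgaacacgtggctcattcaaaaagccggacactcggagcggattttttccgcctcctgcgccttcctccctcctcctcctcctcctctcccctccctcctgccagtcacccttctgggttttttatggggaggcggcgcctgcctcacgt
OAS3 (chr12:112938224-112938473, plus strand): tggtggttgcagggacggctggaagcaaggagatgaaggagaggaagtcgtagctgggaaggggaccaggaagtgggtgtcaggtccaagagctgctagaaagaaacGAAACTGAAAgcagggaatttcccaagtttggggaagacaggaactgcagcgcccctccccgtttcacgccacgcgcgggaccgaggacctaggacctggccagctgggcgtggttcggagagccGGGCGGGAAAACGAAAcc
MCCD1 (chr6:31528712-31528961, plus strand): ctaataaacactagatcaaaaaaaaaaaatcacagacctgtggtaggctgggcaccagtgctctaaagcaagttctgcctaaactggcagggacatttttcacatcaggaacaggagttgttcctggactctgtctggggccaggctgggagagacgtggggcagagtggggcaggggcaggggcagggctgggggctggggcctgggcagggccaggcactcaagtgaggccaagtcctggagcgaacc
CELF3 (chr1:151716804-151717053, minus strand): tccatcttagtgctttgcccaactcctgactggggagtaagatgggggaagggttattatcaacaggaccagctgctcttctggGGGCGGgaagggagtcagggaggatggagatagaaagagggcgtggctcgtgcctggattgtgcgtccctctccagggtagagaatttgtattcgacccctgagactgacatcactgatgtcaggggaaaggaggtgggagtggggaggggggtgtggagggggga
NTMT2 (chr1:170145709-170145958, plus strand): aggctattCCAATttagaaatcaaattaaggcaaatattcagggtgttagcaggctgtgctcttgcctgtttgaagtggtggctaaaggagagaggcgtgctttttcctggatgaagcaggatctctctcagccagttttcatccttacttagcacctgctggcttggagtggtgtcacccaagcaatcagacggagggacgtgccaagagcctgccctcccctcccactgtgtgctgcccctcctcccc
ISG15 (chr1:1013247-1013496, plus strand): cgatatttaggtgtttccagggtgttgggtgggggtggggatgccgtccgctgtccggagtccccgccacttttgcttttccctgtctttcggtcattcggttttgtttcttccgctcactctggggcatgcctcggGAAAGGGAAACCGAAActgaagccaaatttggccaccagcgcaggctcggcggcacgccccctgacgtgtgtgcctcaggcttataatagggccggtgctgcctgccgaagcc
The first 3 belong to the IGF2BP1 knockout list and the last 4 to the IGF2BP2 knockout list. The ARHGDIA window was rich in G and C (71.6%) and held 33 CpG, with GGGCGG and CCGGAAG present. Those of MCCD1, CELF3 and NTMT2 were at 57.2%, 57.2% and 52.4% and held 2, 5 and 3 CpG. OAS3 and ISG15 both held the GAAA repeat, although they stood on opposite sides of the comparison.

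Most accessible sites were found in both knockouts, and the sites found in 1 alone were narrow and lay away from gene starts. A peak was called shared when it had at least 1 bp in common with a peak of the other list. In the IGF2BP1 knockout list, 6840 peaks (13.4%, Wilson 95% interval 13.1 to 13.7) had no counterpart in the IGF2BP2 knockout list. In the opposite direction, 15584 peaks (25.9%, 25.5 to 26.2) had none. This difference largely restates the lengths of the lists, 50917 and 60262 peaks, of which 44077 and 44678 were shared. The call was rarely close, since 6502 and 15006 of the peaks without a counterpart lay 1 kb or more from the other list. The median gap of the peaks without a counterpart was 14.6 kb and 17.6 kb. Just inside the rule, 3 and 10 peaks were shared by under 50 bp, and just outside it 3 and 11 lay within 100 bp of the other list.

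Width followed this division closely. Peaks without a counterpart had a median width of 630 bp in the IGF2BP1 knockout list, against 872 bp for shared peaks. The corresponding medians were 480 bp and 731 bp in the IGF2BP2 knockout list. From the narrowest to the widest decile of each list, the percentage without a counterpart went from 35.7% to 2.36% in the IGF2BP1 knockout and from 60.5% to 1.29% in the IGF2BP2 knockout. The order of the lists turned among the widest peaks. Of peaks of 1500 bp or more, 110 of 4744 in the IGF2BP1 knockout list (2.32%, 1.93 to 2.79) and 15 of 2683 in the IGF2BP2 knockout list (0.559%, 0.339 to 0.92) had no counterpart. At similar width the IGF2BP2 knockout list still had more peaks without a counterpart, 29.9% from 513 to 574 bp against 21.9% from 501 to 583 bp in the IGF2BP1 knockout list. With the IGF2BP2 knockout list cut to as many peaks as the IGF2BP1 knockout list, the widest being kept, the percentages were 20.9% and 20.1%. Lists of equal length must give nearly equal percentages, because most peaks overlapped at most 1 peak of the other list.

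Gene starts were shared more often than other sites. A start peak here is one within 1 kb of the annotated start of a protein-coding gene, or within 1 kb of either gene end for the 4161 of 19974 genes whose strand the reference table did not give. Start peaks made up 26.9% of shared peaks in the IGF2BP1 knockout list and 5.80% (397 peaks, 5.27 to 6.38) of those without a counterpart. In the IGF2BP2 knockout list the values were 27.0% and 2.48% (387 peaks, 2.25 to 2.74). The median distance to the nearest start was 56.3 kb for peaks of the IGF2BP1 knockout list alone and 70.4 kb for those of the IGF2BP2 knockout list alone, against 23.3 kb for the shared peaks of the IGF2BP1 knockout list. Gene bodies held 52.9% and 42.8% of them, against 59.9% of shared peaks in both lists.

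**Figure D1:**
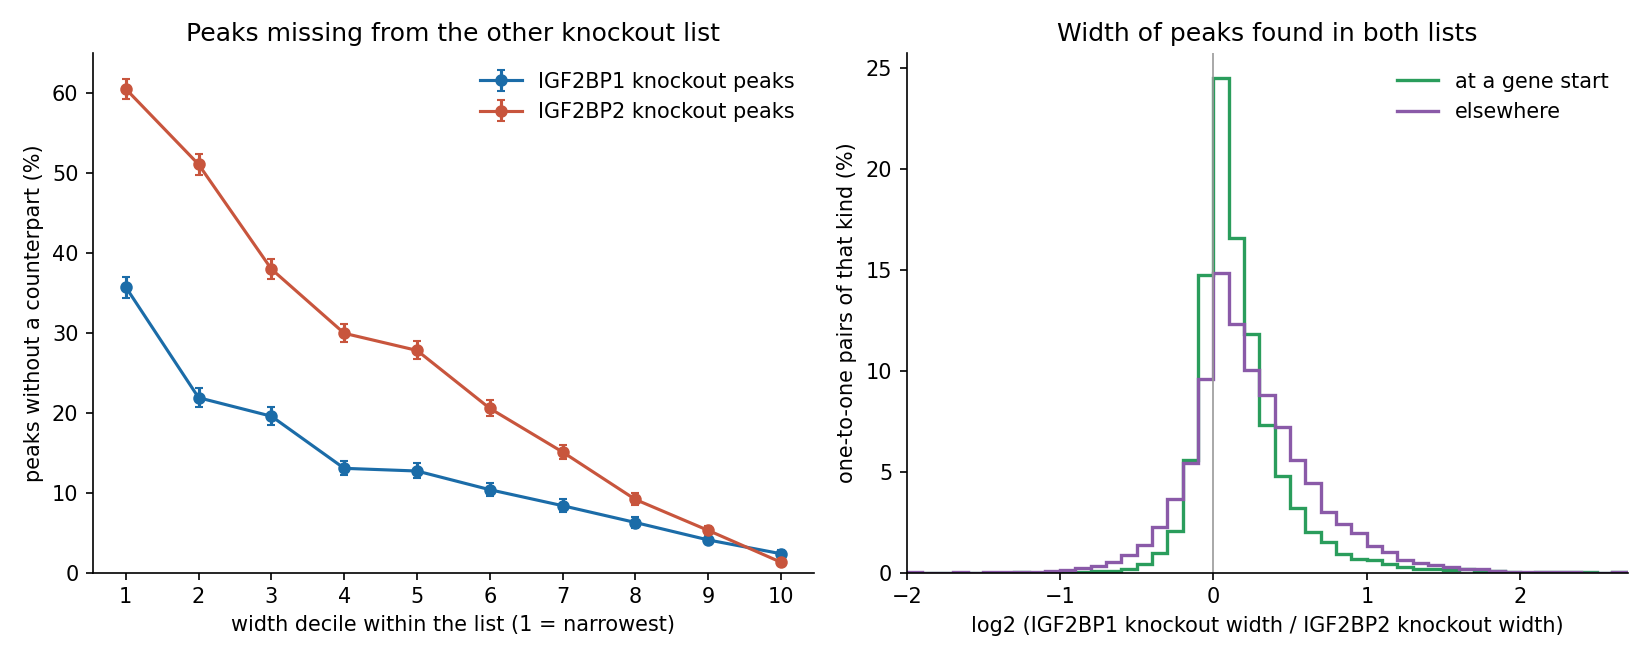
Left, percentage of peaks without a counterpart in the other knockout list (y axis) by width decile within the list (x axis), with Wilson 95% intervals as bars; it runs from 35.7% to 2.36% for the IGF2BP1 knockout and from 60.5% to 1.29% for the IGF2BP2 knockout. Right, distribution of the log2 ratio of widths (x axis) over one-to-one pairs as a percentage of pairs of that kind (y axis), for 11500 pairs at a gene start and 31873 elsewhere; both are shifted to the right of 0, with medians of 0.11 and 0.18.

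Of the 10 widest sites of the IGF2BP1 knockout list alone that lay 1 kb or more from the other list, 3 were start peaks. Among the others, a peak of 2243 bp at chr7:19106451-19108693 lay 4.35 kb from TWIST1, a mesenchymal transcription factor, with the nearest IGF2BP2 knockout peak 7.52 kb away and no control counterpart. A peak of 2105 bp at chr7:156999199-157001303 lay 3.55 kb from MNX1, a homeobox factor of motor neurons, also without a control counterpart. Others were within PTPRG (2071 bp), a receptor phosphatase, CDH4 (2055 bp), a cadherin, ITGA8 (2007 bp), an integrin of the developing kidney, and PALM2AKAP2 (2129 bp). The remaining members of the 10 widest were a peak of 2177 bp on chromosome 13, 40.9 kb from LOC107983958, and the start peaks of ARHGDIA, CBS and LOC102724428 described below. In the control list, 5 of these 10 sites had a counterpart.

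Of the corresponding 10 sites of the IGF2BP2 knockout list alone, 2 were start peaks. A peak of 1745 bp at chr13:88895373-88897117 lay 1216 kb from the nearest protein-coding gene, SLITRK5, and one of 1654 bp on chromosome 1 lay 531 kb from CDC73. Within genes were a peak of 1887 bp in CPEB3, a translational regulator, and one of 1710 bp in RALGAPA2. Peaks of 1987, 1682, 1617 and 1609 bp lay 71.4 kb from LOC101929601, 46.1 kb from SERPINE2, 196 kb from TECRL and 182 kb from FSIP2. The start peaks of MCCD1 (1676 bp) and SET (1645 bp), the latter also inside the gene DYNC2I2, completed the 10. Both of these and the peak near LOC101929601 had a control counterpart, and the other 7 had none.

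Of the sites of one knockout alone, 6.84% in the IGF2BP1 knockout and 14.2% in the IGF2BP2 knockout lay within 10 kb of another of their class. For shared peaks the values were 31.8% and 33.3%. Such a share rises with the number of peaks in a class, here 6823 and 15464 against 43866 and 44463. Whether the sites were clustered or dispersed therefore cannot be read from it. The numbers of such sites were unequal around some long genes, to be read against 6840 and 15584 peaks without a counterpart in all. The genes named here were picked after the counts were seen, by the difference in the number of peaks without a counterpart in the gene and 100 kb on either side. CNTNAP2, a neurexin-family cell adhesion gene on chromosome 7, had 16 such peaks in the IGF2BP1 knockout list and 6 in the IGF2BP2 knockout list. DOCK4 and DPP6, also on chromosome 7, had 9 against 0 and 7 against 0. FGF12, on chromosome 3 beyond IGF2BP2, had 8 against 0. MECOM, a haematopoietic transcription factor on chromosome 3 before IGF2BP2, had 15 against 6. In the opposite direction, PCDH9, a protocadherin on chromosome 13, had 28 in the IGF2BP2 knockout list against 7. RYR2, the cardiac calcium release channel, had 22 against 6, EYS 16 against 1 and ARID1B, a chromatin remodelling subunit, 14 against 0. At PCDH9, the control list held 33 peaks in all, against 62 and 84 in the IGF2BP1 and IGF2BP2 knockout lists. At ARID1B it held 24, against 21 and 35. The lists also differed over chromosome 7, chromosome 3 beyond IGF2BP2 and chromosome 13 from 60 to 90 Mb, as given below. The part of this in the counts of single genes was not tested.

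Shared sites were wider in the IGF2BP1 knockout. Over 43373 pairs in which 1 peak of each list overlapped only the other, the median log2 ratio of widths, IGF2BP1 over IGF2BP2 knockout, was 0.16 (95% interval of the median 0.15 to 0.16), a fold of 1.11. Of these pairs, 75.1% were wider in the IGF2BP1 knockout and 24.5% in the IGF2BP2 knockout. A 2-fold or greater difference in favour of the IGF2BP1 knockout was seen at 1786 pairs (4.12%), against 76 pairs (0.175%) in favour of the IGF2BP2 knockout. The median was 0.11 at gene starts and 0.18 elsewhere, and 0.14 at pairs with a control counterpart against 0.24 at pairs without one. Split into 3 classes of equal size by mean width, the median was 0.22 for the narrowest pairs, 0.18 for the middle class and 0.10 for the widest.

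Wider peaks also bridged neighbouring ones. In the IGF2BP1 knockout list, 633 peaks each lay over 2 or more peaks of the IGF2BP2 knockout list, together 1273 of them, and 351 of the 633 were start peaks. The reverse occurred at 39 peaks. The control list resolved 149 of the 633 into 2 or more peaks, whereas 579 had a control counterpart of some kind.

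The largest width ratios among pairs favoured the IGF2BP1 knockout. At the start of FGF9, a growth factor of gonad and lung development, a peak of 2025 bp in the IGF2BP1 knockout list met one of 315 bp in the IGF2BP2 knockout list, a log2 ratio of 2.68, and the control list had 2 narrower peaks there. A peak within RNF220, a ubiquitin ligase, measured 1704 bp against 302 bp, and the control peak there 1381 bp. Peaks at ARHGAP8 (1858 against 334 bp), within PTPRN2 (1608 against 315 bp) and beside PSD4 (1553 against 310 bp) completed the 5 widest ratios. The 5 largest in the opposite direction were smaller and outside gene starts. They lay 122 kb from LOC647264 (306 against 1184 bp, log2 ratio -1.95), 13.8 kb from NUP210 (324 against 1067 bp), 84.8 kb from SLC39A11 (325 against 1021 bp), within DENND3 (374 against 1159 bp) and 114 kb from STAG2 (338 against 1005 bp). At gene starts, 3 pairs, named after their values were seen, were 2-fold or more wider in the IGF2BP2 knockout, at TEKT4 (523 against 1271 bp), MEF2D (732 against 1767 bp), a muscle and neural transcription factor, and MPRIP (640 against 1307 bp).

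The control list resembled 1 knockout in width and the other in which gene starts were open. Among shared peaks, 75.9% had a control counterpart in either list. Among peaks without a counterpart in the other knockout, the share was 22.9% (1564 peaks, 21.9 to 23.9) in the IGF2BP1 knockout list and 13.9% (2164 peaks, 13.4 to 14.4) in the IGF2BP2 knockout list. It moved to 44.2% and 29.8% when both lists were cut to their widest peaks, as many as the control list holds. Seen from the control list, 85.7% of its peaks were in both knockout lists, 1645 in the IGF2BP1 knockout list only, 2136 in the IGF2BP2 knockout list only and 1805 in neither. Start peaks were 14.5% of the control peaks kept in the IGF2BP1 knockout list only and 5.15% of those kept in the IGF2BP2 knockout list only.

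Width placed the control nearer the IGF2BP2 knockout. At 32553 sites with 1 peak in each of the 3 lists, median widths were 825 bp (control), 937 bp (IGF2BP1 knockout) and 810 bp (IGF2BP2 knockout). The median log2 ratio to the control width was 0.13 for the IGF2BP1 knockout and -0.003 for the IGF2BP2 knockout. The control width was nearer that of the IGF2BP2 knockout at 53.6% of sites and nearer that of the IGF2BP1 knockout at 46.0%, so that single sites were close to evenly divided.

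**Figure D2:**
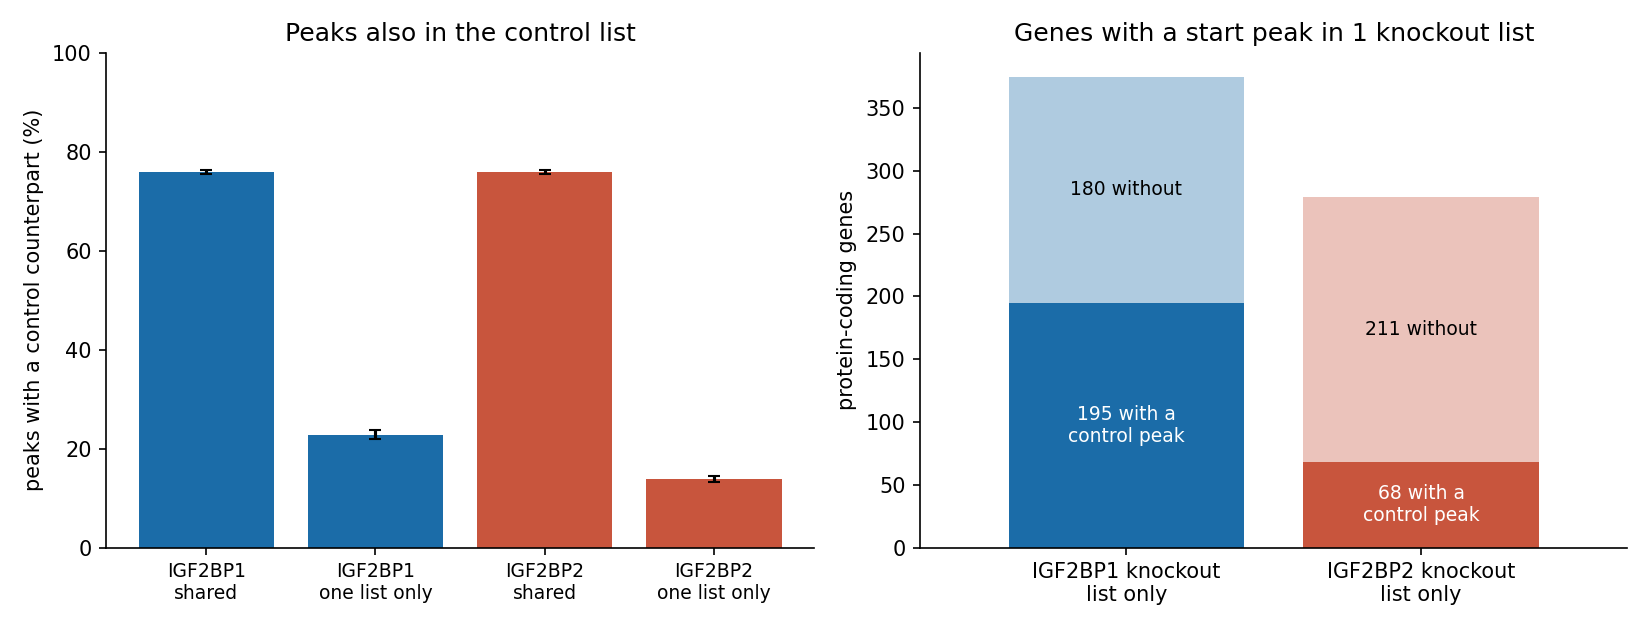
Left, percentage of peaks with a control counterpart (y axis) for shared peaks and peaks of one list only in each knockout list, with Wilson 95% intervals as bars; both shared bars stand at 75.9%, and the one-list bars at 22.9% and 13.9%. Right, number of protein-coding genes (y axis) with a start peak in 1 knockout list only, split by whether the control list has a start peak; 195 of 375 and 68 of 279 genes have one.

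The peaks at the targeted genes differed between the lists, but open chromatin at a gene says nothing of its guide cuts or its protein. At the start of IGF2BP1 on chromosome 17, the IGF2BP1 knockout peak measured 2392 bp (chr17:48995288-48997679) and the IGF2BP2 knockout peak 907 bp (chr17:48995906-48996812), against 2434 bp for the control peak. The wide form was thus in the cells in which IGF2BP1 itself was targeted and in the control. The peak inside the gene measured 793, 603 and 720 bp in the same order.

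IGF2BP2, on chromosome 3, kept start peaks in both knockouts. The peak over its start spanned chr3:185824267-185825418 (1152 bp) in the IGF2BP1 knockout and chr3:185825001-185825372 (372 bp) in the IGF2BP2 knockout, against 898 bp in the control. In the gene, the IGF2BP1 knockout list held 5 peaks that the IGF2BP2 knockout list lacked, of 1324, 559, 618, 707 and 681 bp, the first of them at chr3:185701819-185703142. The IGF2BP2 knockout list held 3 peaks that the IGF2BP1 knockout list lacked, of 742, 462 and 802 bp, the last of them at chr3:185688686-185689487. Every peak of the first set lay at higher coordinates than every peak of the second. The control list had counterparts of 558 and 385 bp to those of 559 and 618 bp in the first set and none to the second.

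IGF2BP3, on chromosome 7, was targeted in neither clone. Its start peak measured 1051 bp in the IGF2BP1 knockout (chr7:23470372-23471422) and 564 bp in the control, and the nearest IGF2BP2 knockout peak lay 3.43 kb from the start. The other 3 peaks around this gene were in both knockout lists, at 1009 and 684 bp, 1257 and 555 bp, and 839 and 899 bp in the IGF2BP1 and IGF2BP2 knockouts respectively.

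Of 19974 protein-coding genes, 13015 (65.2%) had a start peak in both lists and 6305 in neither. A start peak in the IGF2BP1 knockout list only was found at 375 genes (1.88%, 1.698 to 2.08) and in the IGF2BP2 knockout list only at 279 genes (1.4%, 1.24 to 1.57). The control list had a start peak at 195 of the 375 genes (52.0%) and at 68 of the 279 (24.4%). The first set had wider peaks, with a median of 862 bp and 48 of 1500 bp or more, against 511 bp and 4. At 321 of the 375 genes and 270 of the 279, the peak had no counterpart at all in the other list. At the rest, a counterpart lay just beyond 1 kb from the start.

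ARHGDIA, which encodes an inhibitor of GDP release from small GTPases, had a start peak of 3069 bp in the IGF2BP1 knockout list (chr17:81869234-81872302) and 1563 bp in the control list, and the nearest IGF2BP2 knockout peak lay 3.52 kb from its start. KRTAP10-4 (1974 bp) and C1QTNF8 (1864 bp) had no control start peak. CBS, the transsulfuration enzyme, had 2521 bp in the IGF2BP1 knockout and none in the other lists, and LOC102724428 had 2017 bp and a control peak of 1563 bp. Both of these genes on chromosome 21 have a near-identical copy there, so their one-sided class is uncertain. The copy of CBS, LOC102724560, had start peaks of 1485, 853 and 1942 bp in the IGF2BP1 knockout, the IGF2BP2 knockout and the control. The copy of LOC102724428, SIK1, had 1806, 895 and 1616 bp. FOXH1 (2734 bp), WDR74 (2604 bp), CBX2 (2282 bp), FURIN (1966 bp) and LMX1B (1934 bp) also ranked among the 10 widest, but their peaks had a counterpart in the IGF2BP2 knockout list just beyond the 1 kb limit.

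In the IGF2BP2 knockout list, MCCD1 had a start peak of 1676 bp (control 1653 bp) with the nearest IGF2BP1 knockout peak 12.25 kb away. SET, a histone chaperone and phosphatase inhibitor, had 1645 bp at chr9:128683465-128685109 (control 1547 bp). NTMT2, an N-terminal methyltransferase, had 1410 bp (control 1098 bp), and MATN3, a cartilage matrix protein, had 1148 bp (control 823 bp). LOC101929601 had 1256 bp (control 1218 bp). CELF3, a neuronal splicing regulator (1428 bp), and ASCL5 (1183 bp) had none in the control. ATP8B2 (2269 bp), MAMLD1 (2164 bp) and CFAP97D1 (1326 bp) ranked among the 10 widest, with a counterpart in the IGF2BP1 knockout list just beyond 1 kb.

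Genes of innate immune signalling were mostly open in both knockouts or in neither, with few one-sided members in either direction. Among 30 genes of interferon and JAK-STAT signalling, 20 had a start peak in both lists and 9 in neither. The remaining 1 (3.33%, against 1.88% of all genes) was IRF7, the interferon regulatory factor of the type I interferon response. It had a peak of 815 bp for the IGF2BP1 knockout, a control peak of 626 bp and the nearest IGF2BP2 knockout peak 22.7 kb away. Among 34 nucleic acid sensing genes, 17 were open in both and 3 in the IGF2BP1 knockout only (8.82%, against 1.88% of all genes), 1 of which was at the limit of the rule. They were UNC93B1, the chaperone of endosomal Toll-like receptors (1215 bp, control 1079 bp), OAS3, a double-stranded RNA sensor (836 bp, no control peak), and MYD88, the adaptor of Toll-like receptors (1204 bp, control 989 bp). The MYD88 peak had a counterpart at 1.00 kb from the start, at the limit of the rule.

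Of 38 interferon-stimulated effectors, 24 had a start peak in both lists, 11 in neither, 0 in the IGF2BP1 knockout only and 3 (7.89%, against 1.4% of all genes) in the IGF2BP2 knockout only. ISG15, a ubiquitin-like modifier, had 898 bp at chr1:1013209-1014106, no control peak and its nearest IGF2BP1 knockout peak 5.73 kb away. GBP3, a guanylate-binding protein, had 525 bp and no control peak, and IFI35 had 522 bp and a control peak of 465 bp. APOBEC3H, an antiviral cytidine deaminase outside the list that was picked after its value was seen, had 932 bp and no control peak. Of 28 genes of NF-kappaB signalling, 21 were open in both and 1 (3.57%, against 1.88% of all genes) in the IGF2BP1 knockout only. This was TNFAIP2 (977 bp), with a counterpart 1.01 kb from the start. IRF7 and UNC93B1 lie on chromosome 11, whose share of all peaks in the IGF2BP2 knockout list was 0.71 of its share in the control list, and the part of this in their class was not tested.

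Where both lists had a start peak and the widths were far apart, the wider one was mostly that of the IGF2BP1 knockout. Over 13015 genes, the widest start peak was 2-fold or more wider in the IGF2BP1 knockout at 465 (3.57%) and in the IGF2BP2 knockout at 7 (0.0538%). Of 258 genes of the 13 functional lists with a start peak in both, it was so at 20 (7.75%) and 0, and these were named after their values were seen. The immune genes among them were IRF3, which transmits the signal of nucleic acid sensors (2012 against 754 bp, control 827 bp), IRAK1, a kinase downstream of MYD88 (1667 against 722 bp, control 919 bp), NFKB2 (2130 against 863 bp, control 1095 bp) and the cytokine IL6 (1628 against 550 bp, control 1674 bp). At 9 of the 20 genes, IRF3, NFKB2 and IL6 among them, the IGF2BP1 knockout peak lay over 2 or more IGF2BP2 knockout peaks. The widths given are of the widest of these, and together they measured 1375 bp at IRF3, 1706 bp at NFKB2 and 914 bp at IL6. The control width was nearer the IGF2BP1 knockout at 8 genes and nearer the IGF2BP2 knockout at 11.

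Developmental genes showed both kinds of control resemblance. SIX4 (3272 against 1181 bp, control 3171 bp) and LHX1 (1935 against 538 bp, control 1768 bp), both factors of kidney formation, were wide in the IGF2BP1 knockout and the control. AXIN2, a feedback inhibitor of WNT signalling (2274 against 691 bp, control 2197 bp), SNAP25, a synaptic vesicle protein (1560 against 565 bp, control 1554 bp), and RUNX1, a haematopoietic factor (2198 against 912 bp, control 2165 bp), did likewise. SOX2, a factor of neural progenitors (2097 against 758 bp, control 816 bp), NEFM, a neurofilament (1725 against 718 bp, control 744 bp), and DNMT3A, a DNA methyltransferase (1403 against 669 bp, control 656 bp), were wide in the IGF2BP1 knockout alone. The others were YTHDF1, TWIST2, HOXA9, WNT6, FZD8, TCF7, ID1 and IGF2BP1 itself, at log2 ratios from 1.06 at FZD8 to 1.78 at ID1. Some of these IGF2BP1 knockout peaks lay over several IGF2BP2 knockout peaks, of which only the widest is given. At SIX4 there were 3, of 2322 bp together. There were 2 at RUNX1 (1621 bp together), SOX2 (1510 bp), NEFM (1196 bp), ID1 (1231 bp) and TCF7 (1180 bp).

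Presence or absence at the start was one-sided at few developmental genes. Of 48 genes of WNT and TGF-beta signalling, 33 were open in both lists, 4 (8.33%, against 1.88% of all genes) in the IGF2BP1 knockout only and 1 (2.08%, against 1.4%) in the IGF2BP2 knockout only. The 4 were LRP5, a WNT co-receptor on chromosome 11 (1797 bp, control 894 bp), the ligands WNT5A (1389 bp, control 770 bp) and WNT7B (1316 bp, with a counterpart just beyond 1 kb), and GDF11, a TGF-beta family ligand (1221 bp, control 675 bp). The NODAL antagonist LEFTY1 (414 bp) was the 1 in the opposite direction. Among 36 neural genes, TUBB3, a neuronal tubulin (807 bp, control 708 bp), was one of those open in the IGF2BP1 knockout only. Of 39 epithelial and mesenchymal genes, 2 (5.13%, against 1.88% of all genes) were in the IGF2BP1 knockout only. As many, 2 (5.13%, against 1.4%), were in the IGF2BP2 knockout only. The first were the tight junction genes TJP1 (1240 bp, control 772 bp) and CLDN3 (705 bp). The others were the mesenchymal genes COL1A2 (345 bp) and ZEB2 (231 bp, control 850 bp). Their peaks were among the narrowest of that list, at width percentiles 7.12 and 0.1. Both genes left this class when the list was cut to its widest peaks. TWIST2, of the same gene list, had the wider start peak in the IGF2BP1 knockout (1988 against 707 bp). Among 32 kidney developmental factors and 32 leukaemia stem cell genes, 0 were one-sided in either direction. At the 1.88% and 1.4% of all genes, few would be one-sided in lists of this size.

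All 20 genes of the m6A machinery, which writes, erases and reads the mark that IGF2BP proteins recognise, had a start peak in both lists, that of YTHDF1 being 2-fold or more wider in the IGF2BP1 knockout as given above. Of 28 known IGF2BP target genes, 21 were open in both, and 1 (3.57%, against 1.4% of all genes), the Hedgehog effector GLI1 (404 bp), was open in the IGF2BP2 knockout only. Of 17 genes of the insulin-like growth factor axis, 12 were open in both, and 1 (5.88%), IGFBP1, a binding protein made in liver (480 bp), was open in the IGF2BP2 knockout only. Neither had a control start peak.

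Larger families gave small counts in either direction, to be read against 1.88% and 1.4% of all genes. Of 95 potassium channel genes, 5 (5.26%) had a start peak in the IGF2BP1 knockout only and 0 in the IGF2BP2 knockout only, the widest being KCNMA1, a calcium-activated channel (1599 bp). KCNH8 and KCNE1, also among the 5, had a counterpart just beyond 1 kb. T-box, SOX, GATA and FOX factors gave 4 of 84 against 0. Among them were FOXH1, with its counterpart beyond 1 kb, SOX18, an endothelial factor (894 bp, control 875 bp), and FOXP1 (916 bp, control 878 bp). Of 64 protocadherin genes, 4 were open in the IGF2BP1 knockout only, with PCDHA8 widest (1037 bp), and 2 in the IGF2BP2 knockout only. Zinc finger (ZNF) genes gave 5 against 9 of 509, with ZNF827 and ZNF648 widest, and solute carriers 11 against 9 of 386, with SLC17A7 and SLC6A14 widest. ZNF827 (1686 bp) and SLC17A7 (1468 bp) had a counterpart just beyond 1 kb. The histone genes H2AC8 and H2BC8 shared a single peak of 539 bp of the IGF2BP2 knockout list. Among HOX genes, HOXC8 (778 bp) was in the IGF2BP1 knockout only. Olfactory receptor genes were mostly closed, with 378 of 390 in neither list, 1 against 3. The 3 all lay at 140 to 145 Mb of chromosome 7. Of 84 cytosolic ribosomal protein genes, 82 were open in both lists and 0 were one-sided.

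**Figure D3:**
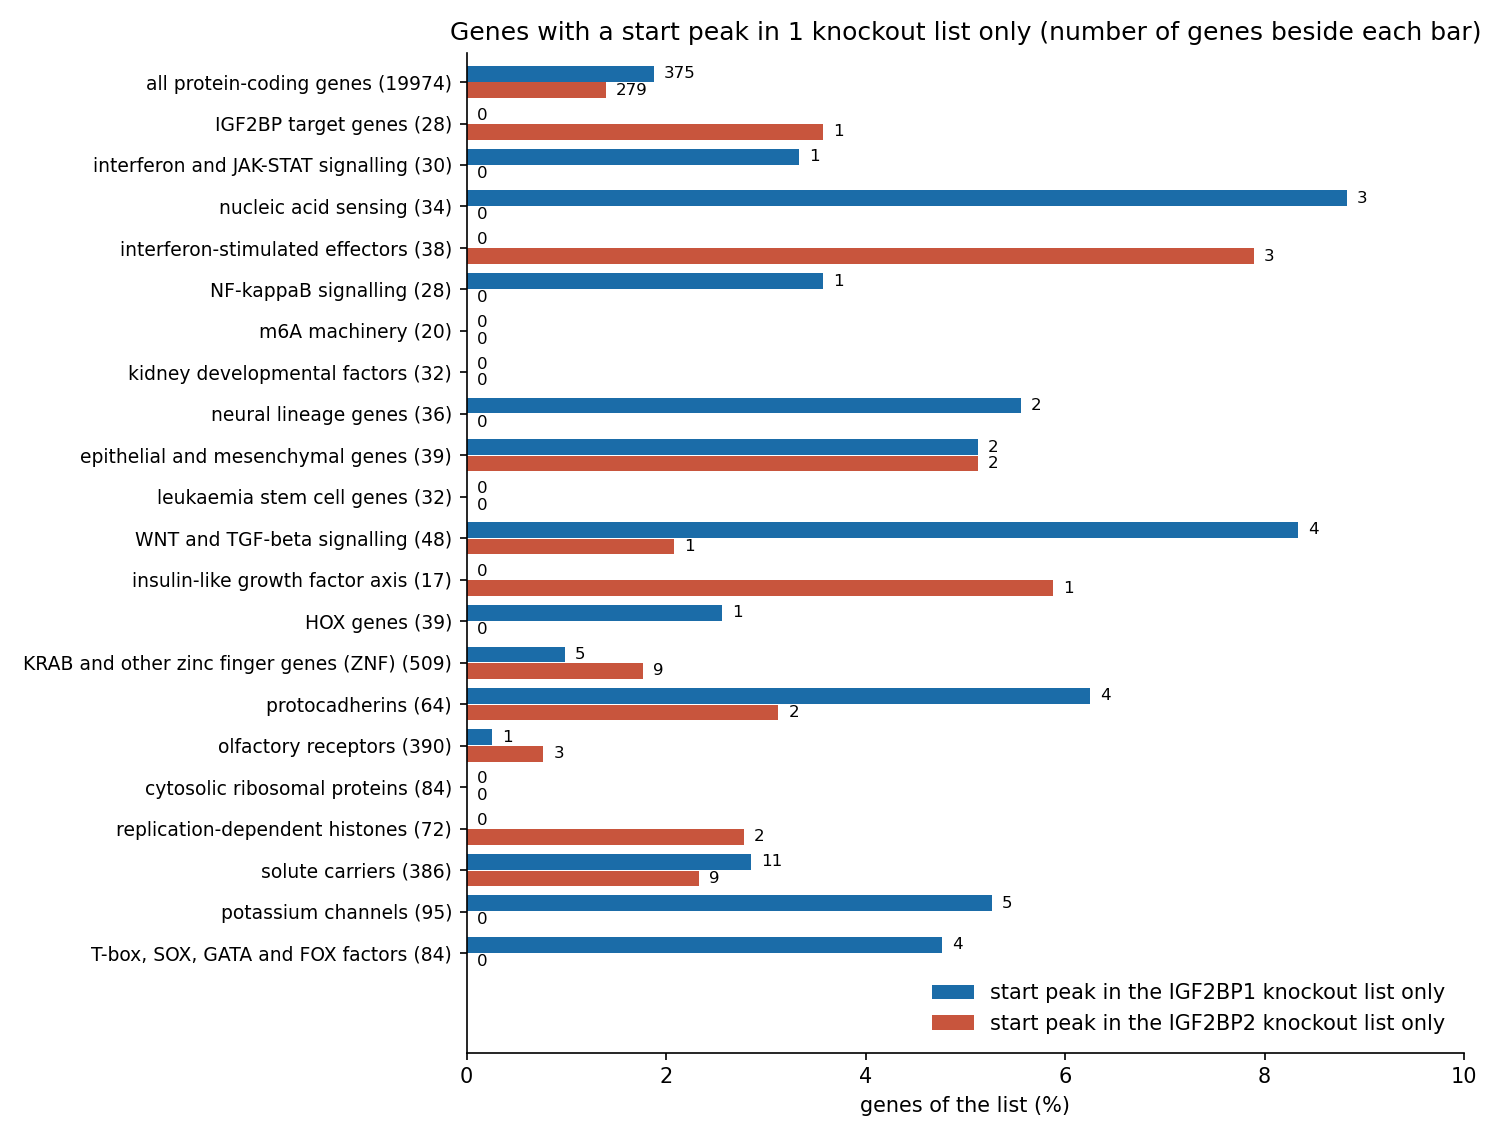
Percentage of the genes of each list or family (x axis) that have a start peak in the IGF2BP1 knockout list only or in the IGF2BP2 knockout list only, with the number of genes beside each bar and the number matched in brackets; the top pair of bars is the background of all 19974 genes, 1.88% and 1.4%. Nucleic acid sensing genes have 3 against 0 and interferon-stimulated effectors 0 against 3, and lists of this size move by several percent with each gene.

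The promoters of the 2 one-sided gene sets differed in base composition. Over the 15813 genes with a promoter sequence, the median G and C content of the 250 bases before the start was 65.6% for genes open in both lists and 51.6% for genes open in neither. It was 66.2% at the 266 genes of the IGF2BP1 knockout only and 56.0% at the 209 genes of the IGF2BP2 knockout only. The median number of CpG was 22, 4, 17 and 6 in the same order. TATAAA was found in 7.89% of the IGF2BP1 knockout set and 16.7% of the IGF2BP2 knockout set, against 9.25% of all promoters, 4.98% of those open in both and 18.5% of those open in neither. GGGCGG was found in 56.8% and 35.4% (all promoters 56.0%), and TGANTCA in 5.64% and 11.5% (all 5.05%). CCGGAAG was found in 5.26% and 3.83% (all 11.8%), against 16.0% of promoters open in both and 3.14% of those open in neither. CCAAT was found in 21.8% and 33.0% (all 34.4%), against 35.3% open in both and 33.4% open in neither. The GAAA repeat, shown above in OAS3 and ISG15, was found in 3.76% and 4.31% (all 2.72%), 10 and 9 promoters. The IGF2BP1 knockout set was thus nearer in G and C content to promoters open in both lists, and the IGF2BP2 knockout set nearer to closed ones. In CCGGAAG, both sets were nearer to closed ones.

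Control resemblance went with this composition. Among genes of the IGF2BP1 knockout only, those with a control start peak had a median G and C content of 70.8% (147 genes) and those without one 60.4% (119 genes). Among genes of the IGF2BP2 knockout only, the values were 59.6% (47 genes) and 53.4% (162 genes).

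The 2 lists were unevenly placed along the genome, more so over all peaks than over start peaks. Chromosomes 7 and 11 held a share of peaks 1.27 and 1.38 times as high in the IGF2BP1 knockout list as in the IGF2BP2 knockout list, and these were the only 2 of 23 chromosomes (8.7%) on which it was 25% or more higher. The share was that much higher in the IGF2BP2 knockout list on none (0.0%). Set against the control share, chromosome 11 stood at 0.982 in the IGF2BP1 knockout and 0.71 in the IGF2BP2 knockout. On chromosome 7, the ratios to control were 1.05 and 0.83. With start peaks alone, the ratio between the knockouts was 1.06 on chromosome 11 and 1.01 on chromosome 7.

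Sites missing from the IGF2BP2 knockout were correspondingly frequent there. On chromosome 11, 23.7% of IGF2BP1 knockout peaks had no counterpart, against 9.94% of IGF2BP2 knockout peaks, the reverse of the genome-wide order. On chromosome 7 the values were 23.6% and 16.7%. These percentages largely restate the counts of peaks, 2385 and 2042 on chromosome 11 and 2650 and 2471 on chromosome 7. They are no separate result. Widths also differed there. The median log2 width ratio was 0.27 on chromosome 11 and 0.24 on chromosome 7, and on chromosome 11 the median ratio to the control was 0.13 for the IGF2BP1 knockout and -0.09 for the IGF2BP2 knockout. Of the 1301 protein-coding genes of chromosome 11, 48 had a start peak in the IGF2BP1 knockout only and 8 in the IGF2BP2 knockout only. The counts over all 19974 genes were 375 and 279.

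**Figure D4:**
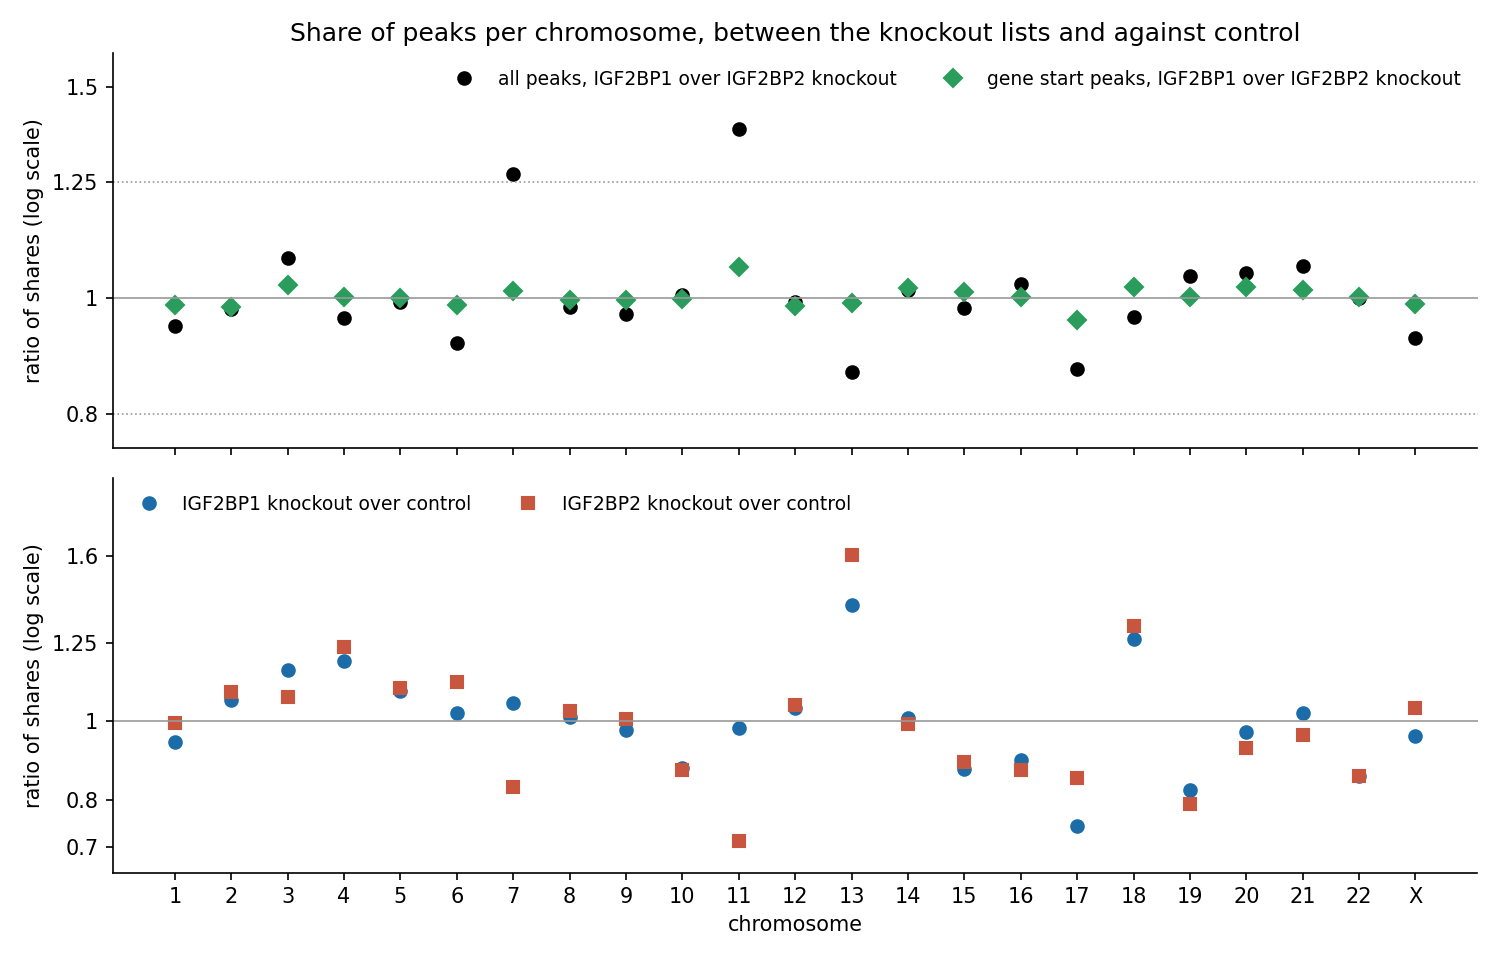
Ratio of the share of peaks per chromosome (y axes, log scale) for chromosomes 1 to 22 and X (x axis). The upper panel sets the IGF2BP1 against the IGF2BP2 knockout for all peaks and for start peaks, with dotted lines at 25% higher in either list, where chromosomes 7 and 11 stand apart at 1.27 and 1.38 with all peaks and at 1.01 and 1.06 with start peaks; the lower panel sets each knockout against the control, where the IGF2BP2 knockout is at 0.83 and 0.71 on these chromosomes.

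Smaller stretches differed further. In 581 windows of 5 Mb, the share was 25% or more higher in the IGF2BP1 knockout at 57 (9.81%) and in the IGF2BP2 knockout at 55 (9.47%). Of the 57, 24 were on chromosome 7, 24 on chromosome 11 and 4 on chromosome 3. Chromosome 7 was not uniform, with the share higher in the IGF2BP1 knockout in 28 of its 31 windows and lower in 3. The lowest of these was at 140 to 145 Mb, with 117 against 178 peaks (log2 ratio -0.36). The highest log2 ratios were 1.30 at 190 to 195 Mb and 1.14 at 185 to 190 Mb of chromosome 3, and 0.85 at 105 to 110 Mb of chromosome 7. The lowest were -1.74 at 60 to 65 Mb of chromosome 6 (12 against 49 peaks), -1.59 at 15 to 20 Mb of chromosome 13 (17 against 62) and -1.20 at 110 to 115 Mb of chromosome X (43 against 118). In the lowest window of chromosome 6, the control list held 9 peaks, and in that of chromosome X 40, near the counts of the IGF2BP1 knockout list. In that of chromosome 13 it held 31, and its log2 ratio of shares to the control was -1.23 for the IGF2BP1 knockout and 0.37 for the IGF2BP2 knockout.

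The high stretch of chromosome 3 began at IGF2BP2. From the start of IGF2BP2 to the end of the chromosome, a segment chosen after its values were seen, the IGF2BP1 knockout list held 233 peaks, the IGF2BP2 knockout list 130 and the control list 152, a ratio of shares of 2.12 between the knockouts. Relative to the control share, the IGF2BP1 knockout stood at 1.18 and the IGF2BP2 knockout at 0.556. On the rest of the chromosome the ratio between the knockouts was 1.05. In the segment, 48.1% of IGF2BP1 knockout peaks had no counterpart, against 4.62% of IGF2BP2 knockout peaks. These percentages again largely restate the 233 and 130 peaks. The median log2 width ratio was 0.42, with 92.4% of 118 pairs wider in the IGF2BP1 knockout, and the median ratio to the control was 0.23 and -0.12. Start peaks were held by both lists nearly alike, 50 and 47. Still, 5 of the 89 genes of the segment had a start peak in the IGF2BP1 knockout only, against 375 of all 19974 genes. All 5 also had one in the control: OSTN (1636 bp), LSG1 (1577 bp), the translation factor EIF4A2 (1424 bp), LRRC15 (539 bp) and the transcriptional repressor BCL6 (466 bp).

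In bins of 2 Mb counted from the middle of IGF2BP2, the log2 ratio of shares was 0.03 in the last bin before the gene and 1.36 in the first bin after it. It was between 1.04 and 1.71 over the next 4 bins, and 0.58 and 0.37 in the last bins of the chromosome. The 3 peaks of the IGF2BP2 knockout alone and the 5 of the IGF2BP1 knockout alone lay on either side of a point inside the gene. No such step was seen at IGF2BP1 in the IGF2BP1 knockout, where the log2 ratio was -0.24 in the bin before and -0.03 in the bin after the gene.

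Between the knockouts, chromosome 17 had its deficit in the IGF2BP1 knockout, mainly at a distance from IGF2BP1. Over its first 30 Mb, also chosen after the values were seen, the IGF2BP1 knockout list held 514 peaks, the IGF2BP2 knockout list 840 and the control list 602, a ratio of shares of 0.724 between the knockouts. Relative to control the ratios were 0.657 and 0.908. Of the IGF2BP2 knockout peaks there, 38.8% had no counterpart, against 2.53% of the IGF2BP1 knockout peaks, which again largely restates the counts. The median log2 width ratio was 0.04, well under the value of all pairs. From 30 Mb on, the part that holds IGF2BP1, the ratio of shares was 0.951. Both knockouts were under the control share there, at 0.78 and 0.82. In the first 30 Mb, 16 of 393 genes (4.07%, against 1.4% of all genes) had a start peak in the IGF2BP2 knockout only. In the IGF2BP1 knockout only there were 0 (against 1.88% of all genes). They included RPH3AL (1110 bp), PITPNM3 (819 bp, control 955 bp), RTN4RL1 (804 bp, control 1043 bp), ZNF287 (647 bp, control 784 bp), NEK8, a ciliary kinase (483 bp), and GABARAP, an autophagy protein (297 bp). The control list had a start peak at 7 of the 16.

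**Figure D5:**
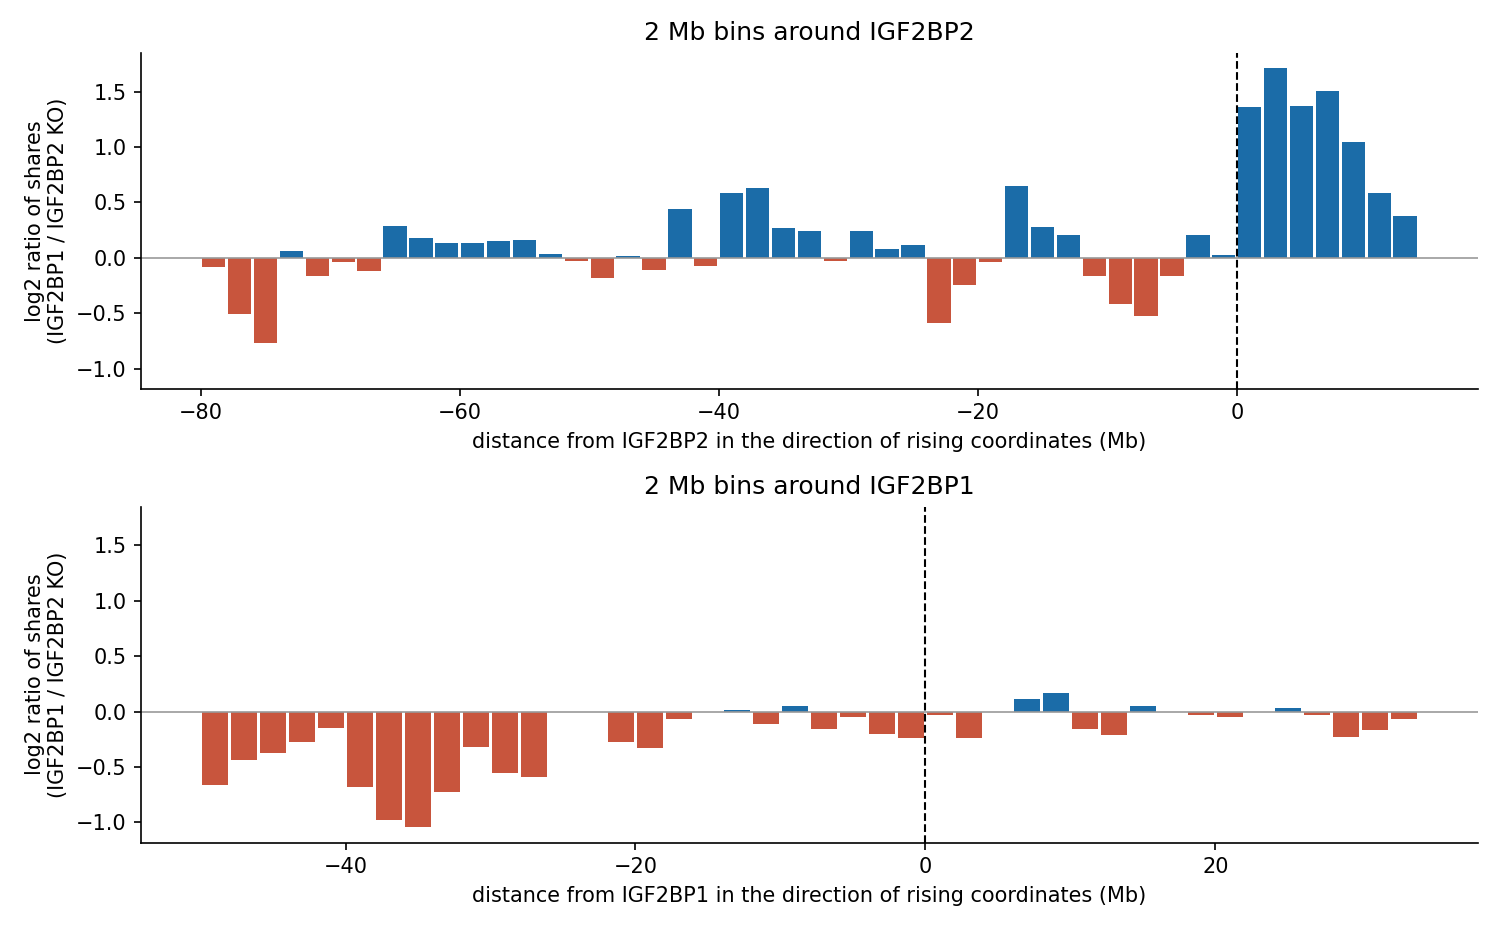
Log2 ratio of the share of peaks, IGF2BP1 over IGF2BP2 knockout (y axes), in bins of 2 Mb by distance from the middle of IGF2BP2 (top) and IGF2BP1 (bottom), marked by dashed lines; bins with a mean under 10 peaks are left out. The ratio goes from 0.03 to 1.36 across IGF2BP2 and stays near 0 at IGF2BP1, while bins on the far left of IGF2BP1 reach -1.04.

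The sites of 1 knockout alone were also counted on these stretches. The stretches were picked by their peak counts, so the direction there was set by that choice. Chromosomes 7 and 11 and chromosome 3 from IGF2BP2 on held 1302 of the 6840 peaks of the first kind (19.04%) and 621 of the 15584 of the second (3.98%). Of all peaks, they held 5268 of 50917 in the IGF2BP1 knockout list and 4643 of 60262 in the IGF2BP2 knockout list. The first 30 Mb of chromosome 17 held 13 and 326 such sites, out of 514 and 840 peaks there. On all other sequence, 12.2% of IGF2BP1 knockout peaks and 26.7% of IGF2BP2 knockout peaks had no counterpart. Of the 2328 protein-coding genes on the first set of stretches, 77 (3.31%) were open in the IGF2BP1 knockout only, 47 of them open in the control. In the IGF2BP2 knockout only, 19 (0.816%) of the 2328 were open. On all other sequence the counts were 298 (1.73%) and 244 (1.41%) of 17253 genes, with 148 and 57 open in the control. On chromosome 13, the stretch from 60 to 90 Mb held 818 IGF2BP1 knockout peaks, 1339 IGF2BP2 knockout peaks and 319 control peaks, so both knockouts exceeded the control there. Of the IGF2BP2 knockout peaks, 47.6% had no counterpart, which again largely restates the counts.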

How the data were processed

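The data were ATAC-seq peak lists of HEK293T cells. Per the submitters' processing notes, the tools were fastp 0.24.1, BWA 0.7.17, MACS2 3.0.0 and bedtools, with build GRCh38. The peak threshold, any shift of reads for transposase binding, and how the libraries of a group were joined into 1 list are not given in the sources used here. The authors deposited 1 list per group with chromosome, start and end only, so the values are positions in bp, counted here from 1, with no height or score, and read depth is unknown. Sequencing depth and the caller's threshold set how many narrow peaks are listed and how wide each is, so they bear on every count and width here. The list of the IGF2BP3 knockout was not used.

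Overlaps, widths and distances were computed with Python 3.11.15, numpy 2.4.6, pandas 2.3.3 and scipy 1.17.1, and the code was checked on simulated lists. Peaks were shared at 1 bp or more in common. Percentages carry Wilson 95% intervals, and medians an interval from order statistics. Gene positions and promoter sequences came from RefSeq tables of GRCh38.p14. Strand was available for 15813 genes, and for the other 4161, all of chromosome 8 included, a peak at either gene end counted. Exons, introns and UTRs were not determined. A gene was assigned its widest peak within 1 kb. Chromosome and window shares are shares of all peaks of a list. Windows of 5 Mb needed a mean of 20 peaks, and a pseudocount of 0.5 was added. No test was made, because each group has 1 list.

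Named were the 3 family genes, the 10 widest one-sided peaks at least 1 kb from the other list and the 10 genes with the widest one-sided start peaks in each direction, the 5 largest width ratios among pairs of at least 300 bp, one-sided members of 13 lists and 9 families (the widest for long ones), chromosomes with a share 25% or more higher in either list and the 3 highest and 3 lowest windows. Others are said to be picked after their values were seen. The members and gene lists were chosen with earlier results of these data known. Of the listed symbols, H19 is not protein-coding, and PKR and EVI1 are older names of genes already listed. Alternatives covered the overlap rule, list length, merging of peaks, sequences counted and the start window. Some genes that the rule would name are not reported here.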

Additional observations from a re-analysis of the deposited data

How the results depend on the processing

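No paired analysis was possible because each group has 1 peak list that joins its libraries, although the libraries of different groups share replicate numbers, and no list without a given library could be made for the same reason. Under the alternatives tried, no signed value changed sign, but the order of the lists turned in the gene counts with the 5 kb window. It also turned in the percentages without a counterpart when lists were cut to equal length. Such lists must give nearly equal percentages, because most peaks overlapped at most 1 peak of the other list. Nothing is concluded from that turn. The cause of the movements below was not tested. With a reciprocal overlap of 50%, 18.33% of IGF2BP1 and 30.99% of IGF2BP2 knockout peaks had no counterpart, of which 9.643% and 6.189% were start peaks and 25.55% and 16.12% had a control counterpart. The median log2 width ratio was then 0.1405, and 7 and 0 pairs were 2-fold wider in the IGF2BP1 and IGF2BP2 knockout, since that rule by construction admits no pair with a width ratio above 2. Counting peaks within 500 bp as shared left 25.49% of IGF2BP2 knockout peaks without a counterpart, 2.24% of them start peaks. With the IGF2BP2 knockout list cut to its widest peaks, as many as the IGF2BP1 knockout list holds, 20.94% and 20.09% had none, 30.73% and 14.66% of these had a control counterpart, the median width ratio was 0.1344 and 1012 pairs were 2-fold wider in the IGF2BP1 knockout. With both lists cut to the number of the control list, the percentages without a counterpart were 22.23% and 21.47%. Of these, 7.003% and 3.221% were start peaks and 44.17% and 29.83% had a control counterpart. The median width ratio was 0.1337, the 2-fold pairs 602 and 14, and 581 genes had a start peak in the IGF2BP1 knockout only. Merging peaks closer than 500 bp gave a median of 0.1527, 121 pairs 2-fold wider in the IGF2BP2 knockout and 5.257% start peaks among the IGF2BP1 knockout peaks without a counterpart. With start peaks alone, the ratio of shares was 1.014 on chromosome 7, 1.061 on chromosome 11, 1.081 on chromosome 3 from IGF2BP2 on and 0.9104 on the first 30 Mb of chromosome 17. With peaks within 5 kb of the start, 378 genes were open in the IGF2BP1 knockout only and 436 in the IGF2BP2 knockout only, so the order of these counts turned. In windows of 10 Mb, 6.557% were higher in the IGF2BP2 knockout. The overlap rules do not enter the chromosome shares and give no other value for them. Of 71 named genes, 28 changed class when the peak had to cover the start itself, 29 with the 5 kb window and 14 with both lists cut. The unknown read depth limits every count of narrow peaks.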

Other observations

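MicroRNA hairpins, which are not protein-coding genes and enter none of the counts above, gave a further view of the sites of 1 knockout alone. Of 1549 hairpins in the reference table, 115 lay in a peak of both knockout lists, 21 in a peak of the IGF2BP1 knockout list only and 11 in a peak of the IGF2BP2 knockout list only. The order was that of gene starts, where the shares were 1.88% and 1.4% of all protein-coding genes. The hairpins named here were picked after the values were seen. The 21 included MIR132 and MIR212, neighbouring microRNAs known from neurons, together with MIR30A, MIR148A and MIR130A. The 11 included MIR137, a microRNA of neural development, MIR219A1 and MIR361. A peak over a hairpin marks open DNA and says nothing of the level of the microRNA.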
